A study of Arabidopsis thaliana with 15 samples.

Results

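Of the 34307 loci in an RNA-seq table of Arabidopsis thaliana leaves, 9 genes of the jasmonate and ethylene defence branch were followed by their AGI codes. They were 5 plant defensin genes (PDF1.1, AT1G75830; PDF1.2A, AT5G44420; PDF1.2B, AT2G26020; PDF1.2C, AT5G44430; PDF1.3, AT2G26010), the effector genes HEL (PR4, AT3G04720) and CHI-B (PR3, AT3G12500), and the transcription factor genes ORA59 (AT1G06160) and ERF1 (AT3G23240). All 9 codes were found, each with 1 row. The RNA came from leaves of 21-day-old Col-0 plants grown at 22 °C with 16 h of light. WT and 4 classes of ubc22 mutant plants had 3 libraries each, 15 in all, described as biological replicates. The labels name the mutant only as ubc22, so which allele or line it was is not given in the sources used here. All mutant plants descended from 1 mutant parent and were sorted by leaf form. Type I looked like WT, Type II had wide round leaves, Type III had narrow, long and pale leaves, and Type IV was small in stature and serrated at the leaf margins.

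Plant defensins are small, cysteine-rich secreted peptides, many of which inhibit the growth of fungi. PDF1.2A is the standard marker of leaves in which jasmonate and ethylene signals act together, a response used against necrotrophic fungi. In that branch the AP2/ERF factors ORA59 and ERF1 bind a promoter element called the GCC box in defensin, HEL and CHI-B genes, while a second branch of the jasmonate response runs through MYC factors to genes such as VSP2. Salicylic acid signalling, whose usual marker is PR1, is known to dampen the defensin branch.

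Recovered reads ranged from 8865955 to 13138977 per library. UBC22, which encodes an E2 ubiquitin-conjugating enzyme, lay between 663 and 696 normalized counts in WT and between 226 and 378 in the 12 mutant libraries. The 5 leaf markers summed to between 512084 and 759971 in every library, and the 5 seed markers to at most 4.08. In salicylic acid genes 1 library of WT, of Type II and of Type IV stood apart. Normalized counts of PR1 were 2993 in WT replicate 1 against 288 and 381 in the other WT libraries, 3135 in Type II replicate 1 against 1042 and 1036, and 3204 in Type IV replicate 3 against 784 and 1006. Type II replicate 1 was also the highest Type II library for 5 of the 8 members with reads in each. Results on the 9 genes were also computed without WT replicate 1 and Type IV replicate 3 together, and without each library alone.

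RNA of 4 defensin genes with few reads elsewhere was found in every Type II library. Of these, PDF1.2B was under the minimum mean and was not tested. PDF1.2A, PDF1.2C and PDF1.3 rose against WT, as did HEL. The normalized counts of ORA59 lay above every library of the other groups, narrowly at the lowest, without passing the test. No member passed in Type I, Type III or Type IV against WT. The summed normalized count of PDF1.2A, PDF1.2B, PDF1.2C and PDF1.3 was 590, 297 and 790 in the Type II libraries, and between 0 and 15.1 in the other 12 libraries. In reads, Type II held 1730 of these 4 genes and the other 12 libraries together held 60.

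**Figure D1:**
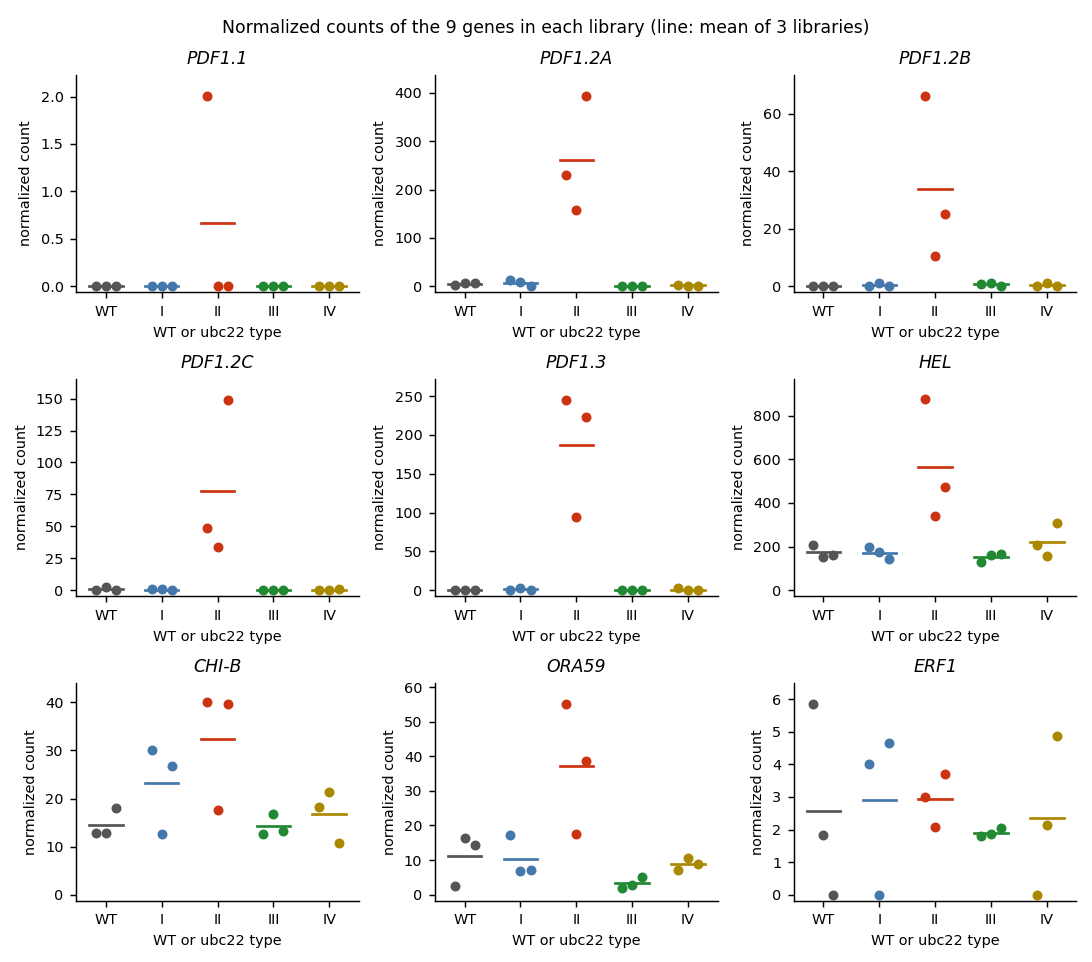
Normalized count of each of the 9 genes (vertical axes, linear, each with its own scale) in WT and the 4 ubc22 types; points are libraries and lines are means of 3 libraries. The 3 Type II libraries lay above all 12 others for PDF1.2A, PDF1.2B, PDF1.2C, PDF1.3, HEL and ORA59. The share of all loci with such a separation was not computed, so the number of members with it is no support by itself. The ranges overlapped for PDF1.1, CHI-B and ERF1.

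The 4 defensin genes formed a tandem pair on each of 2 chromosomes. In RefSeq's TAIR10.1 annotation PDF1.2A (chr5:17906968-17907638, minus strand) and PDF1.2C (chr5:17908850-17909507, minus strand) were separated by 1211 bases. PDF1.3 (chr2:11087280-11088001, plus strand) and PDF1.2B (chr2:11089123-11089805, plus strand) were separated by 1121 bases. Each gene had 2 exons and a coding sequence of 243 bases. Coding identity ranged from 91.4% for PDF1.2A and PDF1.3 to 94.7% for PDF1.2C and PDF1.3, both pairs lying across the chromosomes. It was 93.4% within the chromosome 5 pair and 94.2% within the chromosome 2 pair. The coding part of exon 2 shows how far reads of the 4 genes could be told apart. It is printed in the sense of the gene, 5′ to 3′, with the 17 positions at which the 4 differ in capitals (chr5:17907216-17907394 for PDF1.2A, chr2:11089419-11089597 for PDF1.2B, chr5:17909092-17909270 for PDF1.2C and chr2:11087577-11087755 for PDF1.3, from RefSeq, TAIR10.1).
PDF1.2A: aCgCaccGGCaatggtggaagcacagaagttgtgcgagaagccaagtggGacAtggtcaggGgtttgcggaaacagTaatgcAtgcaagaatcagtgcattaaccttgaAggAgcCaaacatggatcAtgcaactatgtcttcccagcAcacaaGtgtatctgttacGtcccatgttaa
PDF1.2B: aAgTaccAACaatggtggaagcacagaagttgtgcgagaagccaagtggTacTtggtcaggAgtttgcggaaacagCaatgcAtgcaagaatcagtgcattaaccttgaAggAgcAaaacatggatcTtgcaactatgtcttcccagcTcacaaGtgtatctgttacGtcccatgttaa
PDF1.2C: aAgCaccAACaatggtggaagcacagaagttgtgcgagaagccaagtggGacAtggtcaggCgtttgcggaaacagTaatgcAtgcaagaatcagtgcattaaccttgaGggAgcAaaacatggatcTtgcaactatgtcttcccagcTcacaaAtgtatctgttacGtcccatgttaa
PDF1.3: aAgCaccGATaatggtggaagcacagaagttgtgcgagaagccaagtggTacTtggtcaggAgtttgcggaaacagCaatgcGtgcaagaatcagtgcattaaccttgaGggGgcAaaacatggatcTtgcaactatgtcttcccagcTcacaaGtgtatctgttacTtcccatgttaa
Over the 179 bases PDF1.2A differed from PDF1.2C at 9 positions, from PDF1.2B at 11 and from PDF1.3 at 14. Of all windows of 50 bases in the spliced transcripts, 0.566% of PDF1.2A, 0.601% of PDF1.2C, 4.90% of PDF1.3 and 5.00% of PDF1.2B also occurred in another of the 5 defensin genes. Read length and the treatment of reads with several matches are not given in the sources used here, so single-gene values may hold some reads of a sister gene, and the sum over the 4 genes is given beside them.

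PDF1.2A, the marker defensin of the jasmonate and ethylene branch, had normalized counts of 230, 158 and 393 in Type II and of 2.34, 6.36 and 6.02 in WT. Type I had 13.1, 7.72 and 0, Type III had 0.903, 0.937 and 1.02, and Type IV had 3.18, 0 and 0.978. Every Type II library was at least an order of magnitude above every other library. The log2 fold change of Type II over WT on the log2(normalized count + 1) scale was 5.45 (SE 0.80, limma adjusted p = 0.000627, n = 3 against 3), and the ratio of pooled reads, scaled by size factors, was 52.8.

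PDF1.2C, its neighbour on chromosome 5, had normalized counts of 49.1, 34.1 and 149 in Type II against 0, 2.73 and 0 in WT. Outside Type II it did not exceed 2.73 in any library. With 243 reads in Type II and 3 in WT the ratio was 74.1 (95% counting interval 25.05 to 362, counting error only), and the log2 fold change was 5.37 (SE 0.75, limma adjusted p = 0.000474).

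PDF1.3, on chromosome 2, had normalized counts of 245, 94.1 and 223 in Type II, and no read in any WT or Type III library. The other 6 libraries held 7 reads of it, spread over 3 of them. Set against a floor of 3 reads over the WT group, PDF1.3 was at least 176-fold higher in Type II, and limma gave an adjusted p of 4.05e-05 with a log2 fold change of 7.44 (SE 0.68), which depends on the pseudocount.

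PDF1.2B, next to PDF1.3, had normalized counts of 66.2, 10.3 and 24.9 in Type II. WT held no read of it and the other groups held 1 or 2 reads each, so that Type II was at least 31.4-fold higher than the floor of 3 reads over the WT group. Its mean over the 15 libraries, 7.02, was under the minimum of 10, and it was not tested. PDF1.1, a defensin best known from seeds, had 2 reads in Type II replicate 1 and none in the other 14 libraries.

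**Figure D2:**
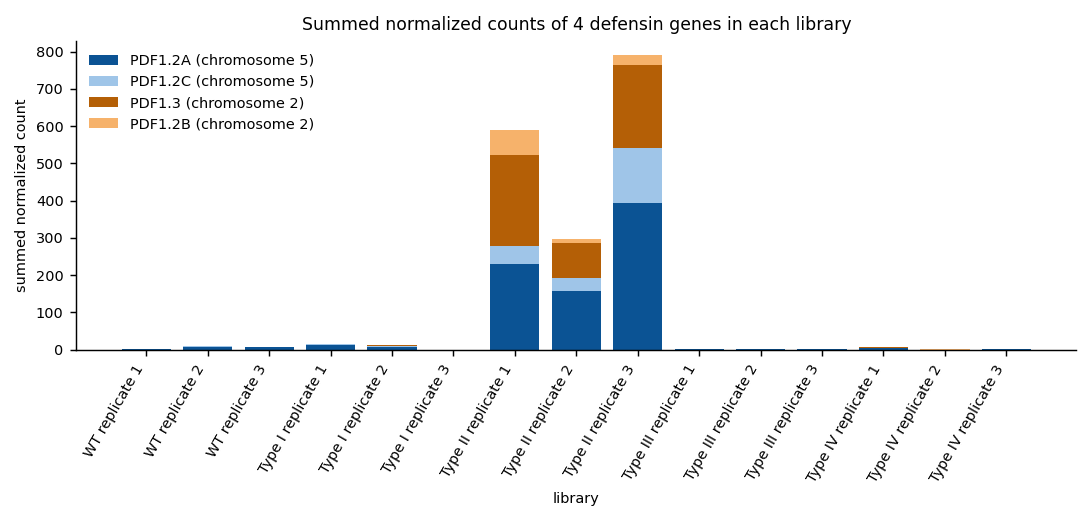
Summed normalized counts of PDF1.2A, PDF1.2C, PDF1.3 and PDF1.2B (vertical axis, linear from 0) in each of the 15 libraries, stacked by gene. The 3 Type II libraries reached 590, 297 and 790, no other library exceeded 15.1, and both pairs contributed in each Type II library.

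The make-up of the defensin sum varied among the Type II libraries. The chromosome 2 pair, PDF1.3 and PDF1.2B, gave 52.7% of the summed count in replicate 1, 35.2% in replicate 2 and 31.3% in replicate 3. PDF1.2A alone gave 38.9%, 53.3% and 49.8%. Replicate 1 was thus highest in both chromosome 2 genes, and replicate 3 in both chromosome 5 genes. Type II replicate 2 was the lowest of the 3 for all 8 members with reads in each Type II library.

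The printed promoter windows of the 4 defensin genes show where the GCC box fell. The motif AGCCGCC was searched on both strands within 500 bases upstream of each annotated start, and the first 300 bases are printed below in the sense of the gene, 5′ to 3′, with a match in capitals. They come from RefSeq, TAIR10.1 (chr5:17907639-17907938, minus strand, for PDF1.2A; chr2:11088823-11089122, plus strand, for PDF1.2B; chr5:17909508-17909807, minus strand, for PDF1.2C; chr2:11086980-11087279, plus strand, for PDF1.3).
PDF1.2A: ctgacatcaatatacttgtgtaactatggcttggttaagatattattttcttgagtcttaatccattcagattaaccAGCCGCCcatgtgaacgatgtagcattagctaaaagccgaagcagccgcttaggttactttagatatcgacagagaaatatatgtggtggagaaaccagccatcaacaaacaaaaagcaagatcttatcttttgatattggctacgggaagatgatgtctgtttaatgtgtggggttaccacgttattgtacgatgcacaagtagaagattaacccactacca
PDF1.2B: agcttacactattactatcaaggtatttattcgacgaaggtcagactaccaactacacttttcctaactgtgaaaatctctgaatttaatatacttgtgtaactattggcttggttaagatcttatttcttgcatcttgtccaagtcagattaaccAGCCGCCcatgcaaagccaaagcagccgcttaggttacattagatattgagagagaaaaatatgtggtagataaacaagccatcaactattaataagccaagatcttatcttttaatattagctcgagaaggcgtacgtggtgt
PDF1.2C: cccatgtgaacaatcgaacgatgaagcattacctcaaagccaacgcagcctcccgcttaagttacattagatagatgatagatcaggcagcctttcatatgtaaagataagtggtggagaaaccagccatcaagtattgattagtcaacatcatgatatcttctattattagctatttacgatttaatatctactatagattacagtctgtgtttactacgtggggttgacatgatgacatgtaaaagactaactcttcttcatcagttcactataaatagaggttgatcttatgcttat
PDF1.3: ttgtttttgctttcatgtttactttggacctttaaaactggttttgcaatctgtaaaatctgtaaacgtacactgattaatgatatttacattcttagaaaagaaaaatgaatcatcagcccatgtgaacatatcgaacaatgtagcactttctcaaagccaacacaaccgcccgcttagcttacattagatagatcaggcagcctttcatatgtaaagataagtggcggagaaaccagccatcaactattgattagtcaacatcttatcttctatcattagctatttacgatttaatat
One gene of each tandem pair held the motif. The first base of the match lay 223 bases upstream in PDF1.2A and 144 bases upstream in PDF1.2B, and PDF1.2C and PDF1.3 had no match. HEL had a match 389 bases upstream, which made 3 of the 9 members, against 1.34% of 27443 promoters of the annotation. The shorter core GCCGCC, which lies within AGCCGCC, was also found in ORA59, 230 bases upstream, and so in 4 of 9 members against 4.12% of promoters. The G box CACGTG, searched in the same way, was found in ORA59 alone, 194 bases upstream, against 9.35% of promoters. A match is a description of these letters and not of a bound site. PDF1.3 and PDF1.2C, without the motif in this window, were called higher in Type II along with PDF1.2A and HEL, which had it.

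HEL encodes a hevein-like, chitin-binding PR4 protein and had the highest mean normalized count per kb of transcript among the members in every group. Its normalized counts were 876, 340 and 472 in Type II and 207, 151 and 162 in WT. Type I had 196, 174 and 143, Type III had 129, 163 and 167, and Type IV had 207, 156 and 307. The lowest Type II library was above the highest other library, a Type IV library that also had the highest PR1 of its group. HEL rose in Type II with a log2 fold change of 1.59 (SE 0.29, limma adjusted p = 0.00236), a scaled read ratio of 3.28, far under that of PDF1.2A.

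CHI-B encodes a basic vacuolar chitinase. It had normalized counts of 40.1, 17.6 and 39.7 in Type II, 12.9, 12.7 and 18.1 in WT, and 30.2, 12.5 and 26.7 in Type I. Type II replicate 2 fell inside the WT range, and the other Type II libraries lay above all libraries of the other groups. The log2 fold change of 1.03 (SE 0.38) had a limma adjusted p of 0.0803. Without Type II replicate 2 it was 1.41 with a limma adjusted p of 0.0277. An annotated non-coding RNA, AT3G12502, overlaps CHI-B on the opposite strand, and the kit named in the labels does not mark strand, so reads of the overlapping pair cannot be told apart.

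ORA59, the factor placed above PDF1.2A in the branch, had normalized counts of 55.1, 17.6 and 38.8 in Type II and 2.34, 16.4 and 14.4 in WT. The lowest Type II library exceeded the highest other library, Type I replicate 1 at 17.1, by a narrow margin. Both libraries had 17 reads and WT replicate 2 had 18, so the separation held for normalized counts and not for reads. The log2 fold change was 1.85 (SE 0.60, 95% interval 0.56 to 3.13, limma adjusted p = 0.0526), just outside the threshold. It passed in 8 of 27 alternative settings, among them edgeR (adjusted p = 0.0344), DESeq2 (adjusted p = 0.0287) and limma-voom (adjusted p = 0.0414). WT replicate 1, the library with high PR1, had the lowest ORA59 of WT, and without it the log2 fold change was 1.08 with a limma adjusted p of 0.158. The part of salicylic acid genes in this value was not tested.

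ERF1, the other factor of the branch, stayed near the detection limit. It ranged from 0 to 5.85 normalized counts over all libraries, and WT held 7 reads, Type I 8, Type II 9, Type III 6 and Type IV 7. The groups overlapped fully, and its mean of 2.52 kept it out of the test. The ratio of pooled reads in Type II over WT, scaled by size factors, was 1.18. A modest change of ERF1 was not detectable at this depth.

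Scaled to transcript length, the order of the members differed between WT and Type II. In WT HEL stood first at 153 ± 26.1 normalized counts per kb (SD, n = 3), followed by CHI-B at 10.6 ± 2.21, ORA59 at 10.2 ± 7.00 and PDF1.2A at 8.47 ± 3.85, which did not differ beyond their spread. In Type II HEL at 496 ± 246 and PDF1.2A at 450 ± 208 were level within their spread. PDF1.3 followed at 302 ± 131, PDF1.2C at 141 ± 114, PDF1.2B at 55.5 ± 47.5, ORA59 at 34.2 ± 17.3 and CHI-B at 23.6 ± 9.39, with neighbours overlapping, and ERF1 at 2.96 ± 0.826 and PDF1.1 at 1.54 ± 2.66 came last. PDF1.2A thus went from a level like that of ORA59 to one like that of HEL.

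Of the 6 members tested, 4 were higher and none was lower in Type II at a limma adjusted p under 0.05, where 10.2% of the 17560 tested loci were higher and 4.38% were lower. At an unadjusted p under 0.05, reached by 5225 of the tested loci in either direction, all 6 were higher and none was lower. The tools edgeR, DESeq2 and limma-voom each called 5. Only HEL and CHI-B had a mean of at least 10 without the Type II libraries. PDF1.2A, PDF1.2C, PDF1.3 and ORA59 entered the test through Type II, so the count over tested members does not stand for all 9 and is no support by itself. Without WT replicate 1 and Type IV replicate 3, PDF1.2A, PDF1.2C, PDF1.3 and HEL were again the 4 members called in Type II. In bulk leaf RNA, more cells of a type and more RNA per cell cannot be told apart.

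Against WT, 0 of 6 tested members passed in Type I, where limma called 0.0683% of loci. None had an unadjusted p under 0.05, and edgeR, DESeq2 and limma-voom called 0. The interval of the Type I difference was −0.64 to 0.60 for HEL and −1.87 to 1.54 for PDF1.2A on the log2 scale, so moderate changes of the defensin could not be seen. The 6 tested members also had 0 calls in Type IV, where limma called 33% of loci, with 0 at an unadjusted p under 0.05 and 0 by edgeR, DESeq2 and limma-voom. PDF1.2A was at −1.46 there (SE 0.80, limma adjusted p = 0.173) and passed without Type I replicate 3 (limma adjusted p = 0.0478). PDF1.2C had 3 reads in WT and PDF1.3 had 0, so a fall of either could not have been called.

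Type III, where limma called 47.6% of loci, again gave 0 of 6 members, with 0 at an unadjusted p under 0.05, 0 by edgeR and limma-voom, and 2 by DESeq2. Those were PDF1.2A (adjusted p = 0.0424) and ORA59 (adjusted p = 0.0337), both at lower values than WT. PDF1.2A had exactly 1 read in each Type III library, under all 3 WT libraries, with a log2 fold change of −1.51 (SE 0.80, limma adjusted p = 0.133). ORA59 had normalized counts of 1.81, 2.81 and 5.10, which overlapped WT through WT replicate 1 alone. Its log2 fold change of −1.26 (SE 0.60, limma adjusted p = 0.0982) became −2.02 without that library (limma adjusted p = 0.00529). PDF1.2A in Type III passed without Type I replicate 3, which had no read of it (limma adjusted p = 0.0301). PDF1.2C had 3 reads in WT and 0 in Type III, and PDF1.3 had 0 in both, so a fall of either could not have been called.

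**Figure D3:**
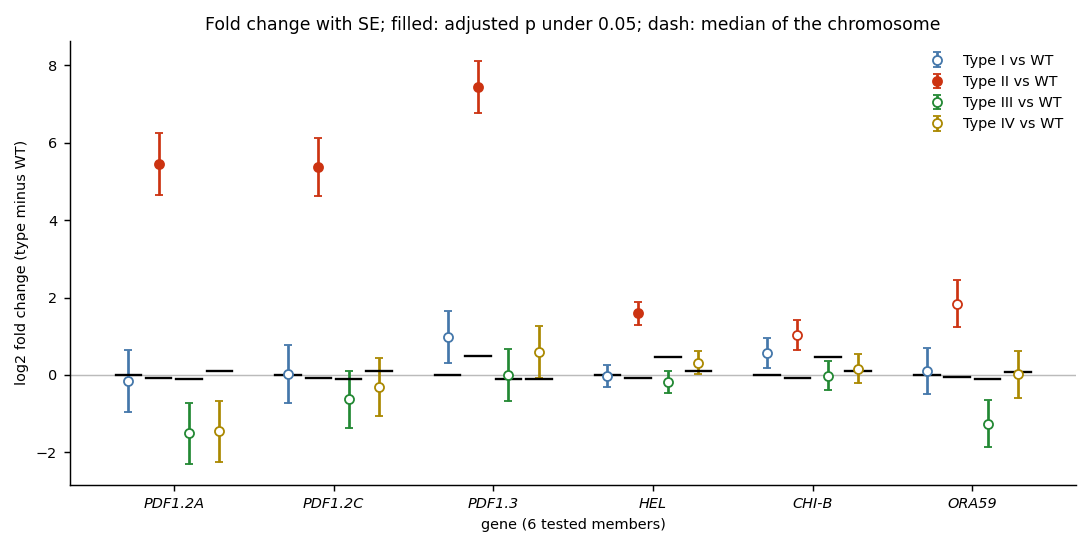
Log2 fold change of each type against WT (vertical axis, difference of mean log2(normalized count + 1), bars are SE) for the 6 tested members; filled points passed at an adjusted p under 0.05 and black dashes are medians of the tested loci on the gene's chromosome. PDF1.2A, PDF1.2C, PDF1.3 and HEL were filled in Type II alone, at 5.45, 5.37, 7.44 and 1.59.

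Direct comparisons between the mutant types were made for the same 6 members. Of these, PDF1.2A, PDF1.2C, PDF1.3 and ORA59 entered the test through Type II. Counts of calls against Type II, here and below, are therefore no support by themselves. Against Type I, PDF1.2A was higher by 5.62 on the log2 scale, PDF1.2C by 5.34, PDF1.3 by 6.45 and HEL by 1.61, with limma adjusted p between 0.000204 and 0.00219. These were 4 of 6 members, where 9.43% of loci were higher, and ORA59, at 1.74, had a limma adjusted p of 0.0683. It passed in 9 of 27 alternatives, among them edgeR (adjusted p = 0.0270), DESeq2 (0.0181) and limma-voom (0.0454). All 6 members were lower in Type III than in Type II, where 26.3% of loci were lower. The log2 difference was −7.44 for PDF1.3, −6.96 for PDF1.2A, −6.00 for PDF1.2C, −3.1 for ORA59 (limma adjusted p = 0.000566), −1.77 for HEL and −1.05 for CHI-B (limma adjusted p = 0.0299). The CHI-B call was lost when Type II replicate 1 or 3, or Type III replicate 1 or 3, was left out, with limma adjusted p between 0.0751 and 0.116.

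In Type IV 5 of 6 members were lower than in Type II, where 22.3% of loci were lower. The log2 difference was −6.91 for PDF1.2A, −6.85 for PDF1.3, −5.67 for PDF1.2C, −1.83 for ORA59 (limma adjusted p = 0.0245) and −1.27 for HEL. ORA59 missed the threshold without Type II replicate 1 (limma adjusted p = 0.104), Type II replicate 3 (0.0684) or Type IV replicate 1 (0.0754). Among the pairs without Type II, 0 of 6 members passed in limma between Types III and I, IV and I, or IV and III, where 41.6%, 27.8% and 34.6% of loci did. At an unadjusted p under 0.05 there was 1, ORA59 in Type III against Type I, and DESeq2 called 1, 1 and 0, with 0 by edgeR and limma-voom. The ORA59 values of Type III, at most 5.10, lay under those of Type I, at least 6.75, and of Type IV, at least 7.16. PDF1.2C and PDF1.3 had at most 4 reads in each of these types, so a fall of either could not have been called.

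The mean of the 4 types against WT gave 1 of 6 members, PDF1.3, with a log2 difference of 2.25 (SE 0.53, limma adjusted p = 0.00835), where 12.4% of loci were higher. Its Type III libraries had no read, and of its reads in the mutants all but 7 were from Type II, which held 576. DESeq2 (adjusted p = 0.0957) and limma-voom (adjusted p = 0.0998) did not call it, nor did edgeR, which called 0 members.

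The chromosome of each gene is given because loci of whole chromosomes shifted together in Types II, III and IV. Over WT, tested loci of chromosome 2 had a median log2 fold change of 0.50 in Type II, and 51.4% of them were called higher. On the other chromosomes the median lay between −0.08 and −0.07, and 2.42% to 3.12% were called higher. PDF1.3 and PDF1.2B lie on chromosome 2, and the 7.44 of PDF1.3 was far above that median. PDF1.2A and PDF1.2C on chromosome 5 and HEL on chromosome 3 rose without such a shift. With each library centred per chromosome, the log2 fold changes were 5.53 for PDF1.2A, 5.45 for PDF1.2C, 6.94 for PDF1.3 and 1.67 for HEL, and all 4 passed in limma (adjusted p at most 0.00995). In Type III the chromosome 3 median was 0.48. HEL, on that chromosome, was at −0.17 (95% interval −0.79 to 0.44). CHI-B, also on it, was at −0.02 (95% interval −0.83 to 0.79), an interval that includes the median. In Type IV the median was −0.41 on chromosome 4 and −0.11 on chromosome 2. It lay between 0.08 and 0.11 on chromosomes 1, 3 and 5.

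The members followed one another across libraries mainly through Type II. Pearson's r of log2(normalized count + 1) over 15 libraries was 0.94 for PDF1.2A and PDF1.3 and 0.88 for PDF1.3 and HEL, and over the 12 libraries without Type II it was 0.55 and 0.20. For PDF1.2A and ORA59 it was 0.79 and 0.47. Low counts outside Type II limit these values. The 5 loci most like each of the 6 tested members, by Pearson's r over 15 libraries, made 30 pairs, and in 28 the locus lay on chromosome 2. That chromosome held 2656 of the 17560 tested loci. AT2G46520 was named for both PDF1.2A and PDF1.2C, and AT2G17410 for both PDF1.2C and PDF1.3. The closest to PDF1.2A was AT2G46520 (r = 0.973), to PDF1.2C OEP16-3 (0.956), to PDF1.3 AT2G17410 (0.971), to HEL GRP-3 (0.929) and to ORA59 AT2G41670 (0.914). The other 2 of the 30 pairs held ZAT6 on chromosome 5, closest to CHI-B (0.893), and CYP71B22 on chromosome 3, the last of the 5 for ORA59 (0.873). All these points share the 3 Type II libraries, in which chromosome 2 as a whole was shifted.

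Genes around the 9 members were read from 8 further lists with 71 genes of defensins, ERF factors, ethylene, jasmonate and salicylic acid signalling and chitinases, of which 55 were tested. In Type II 12 of the 55 were higher and 0 were lower in limma, where 10.2% of all tested loci were higher and 4.38% were lower. At an unadjusted p under 0.05 there were 21 and 1, a limit that 5225 of the 17560 tested loci reached in either direction. The median log2 fold change was 0.29 against −0.02 over all loci. Of the 12 called, 10 lay on chromosome 2, which held 15 of the 55. Among all tested loci of that chromosome 51.4% were called higher. The median was 0.74 for those 15 and 0.06 for the other 40. With each library centred per chromosome 2 genes were called higher in Type II, AT2G43590 at 1.65 (limma adjusted p = 0.00537) and VSP2 at 3.25 (adjusted p = 0.0480). 

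**Figure D4:**
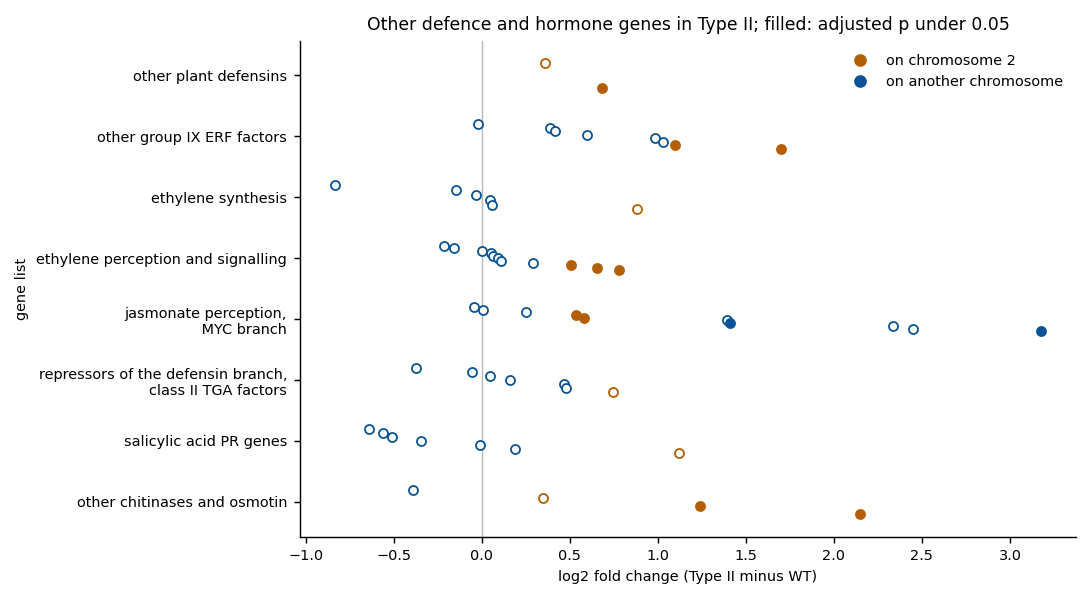
Log2 fold change of Type II over WT (horizontal axis) for the 55 tested genes of the 8 further lists (rows); each point is a gene, orange on chromosome 2 and blue elsewhere, filled where the adjusted p was under 0.05. Of the 12 filled points 10 are orange, and the 2 blue ones are VSP2 at 3.18 and LOX2 at 1.41.

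Of 11 tested ethylene receptor and signalling genes, 3 were higher in Type II, where 10.2% of all tested loci were. All 3 lie on chromosome 2, which had a median of 0.50 and 51.4% of its loci called higher. The ethylene receptor gene ERS1 was at 0.78 (limma adjusted p = 0.000605), EIL1, an EIN3-like transcription factor gene, at 0.51 (adjusted p = 0.00174), and EBF1, an F-box gene whose product removes EIN3, at 0.65 (adjusted p = 0.000431). None of the 3 passed with each library centred per chromosome, where ERS1 was at 0.28 (limma adjusted p = 0.196), EIL1 at 0.01 (0.970) and EBF1 at 0.15 (0.366). None of the 6 tested ethylene synthesis genes passed in Type II in limma, with 1 at an unadjusted p under 0.05.

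Of 10 jasmonate perception and MYC branch genes, 4 were higher in Type II, where 10.2% of all tested loci were. COI1, the jasmonate receptor gene, at 0.54 (limma adjusted p = 0.000662), and JAR1, whose product conjugates jasmonate to isoleucine, at 0.58 (adjusted p = 0.00686), lie on chromosome 2, and with each library centred per chromosome they were at 0.04 (limma adjusted p = 0.842) and 0.08 (0.777). VSP2, a vegetative storage protein gene and marker of the MYC branch, and LOX2, a lipoxygenase gene of jasmonate synthesis, lie elsewhere and are named because they were the only 2 called off chromosome 2. VSP2 had 2752, 3464 and 5962 normalized counts in Type II and 1040, 512 and 143 in WT, with a log2 fold change of 3.18 (SE 0.82, limma adjusted p = 0.0174). Its Type I values of 3696, 4104 and 5829 were also above all WT libraries, at 3.39 (limma adjusted p = 0.118), and without WT replicate 1 and Type IV replicate 3 the Type I value was 4.03 (adjusted p = 0.0442). LOX2 was at 1.41 in Type II (limma adjusted p = 0.0397) and 1.46 in Type I (adjusted p = 0.168). For VSP2 and LOX2 the Type I and Type II libraries thus overlapped, where for PDF1.2A, PDF1.2C and PDF1.3 they did not.

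Other defensins and ERF factors differed from WT in several types. PDF2.2, a defensin of the second class, was higher in Type II by 0.68 (limma adjusted p = 0.0144), by 0.70 in Type III (adjusted p = 0.00328) and by 0.61 in Type IV (adjusted p = 0.0126), while PDF2.3 was lower in Types III (−0.51, limma adjusted p = 0.00631) and IV (−0.79, adjusted p = 0.000639). PDF2.2 lies on chromosome 2. With each library centred per chromosome its Type II value was 0.18 (limma adjusted p = 0.611), and the Type II call held in 23 of 28 alternatives. Of 8 tested group IX ERF genes, the family of ORA59 and ERF1, 2 were higher in Type II, ERF13 at 1.70 (limma adjusted p = 0.0474) and ERF15 at 1.1 (adjusted p = 0.0287), both on chromosome 2. Over all tested loci 10.2% were higher there, and 51.4% of those on chromosome 2. ERF13 was higher too in Type III by 1.78 (limma adjusted p = 0.0135) and in Type IV by 1.80 (adjusted p = 0.0193), and its mean was highest in Type I, at 29.0 ± 16.6 normalized counts (SD, n = 3) against 4.45 ± 2.26 in WT. Its Type II call held in 11 of 27 alternatives, with limma adjusted p from 0.0224 to 0.246 among them. In Type I limma called 0 of the 8 genes, with 6 at an unadjusted p under 0.05 and a median log2 fold change of 1.1. Over all tested loci, 2542 of 17560 had an unadjusted p under 0.05 in Type I. ERF15, a factor known to act on abscisic acid and defence responses, had 62.2, 109 and 87.7 normalized counts in Type II, 39.8, 39.1 and 37.3 in WT, 6.32, 10.3 and 10.2 in Type III and 10.3, 6.39 and 17.6 in Type IV. It was above WT in Type II and below it in Types III (−2.03, limma adjusted p = 0.000105) and IV (−1.78, adjusted p = 0.000761). With each library centred per chromosome the Type II value of ERF15 was 0.60 (limma adjusted p = 0.298). ERF104 was higher in Type III by 1.38 (limma adjusted p = 0.00168) and in Type IV by 0.95 (adjusted p = 0.0260), and ERF100 in Type IV by 1.33 (adjusted p = 0.0108).

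Of 4 tested further chitinase and osmotin genes, 2 were higher in Type II, where 10.2% of all tested loci were. AT2G43590 was at 2.15 (limma adjusted p = 0.000199) and AT2G43620 at 1.24 (adjusted p = 0.0208), and both lie on chromosome 2. With each library centred per chromosome AT2G43590 passed and AT2G43620 did not (0.74, limma adjusted p = 0.237). AT2G43590 was also higher in Type III by 3.03 (limma adjusted p = 5.15e-07) and in Type IV by 2.33 (adjusted p = 2.83e-05). CHI was lower in Type III (−4.08, limma adjusted p = 0.000962), as was EP3 (−1.05, adjusted p = 0.0209), whose call was lost without WT replicate 1 (adjusted p = 0.103) or Type III replicate 3 (0.0980). CHI-B had 12.6, 16.9 and 13.3 normalized counts there, within the spread of WT.

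Salicylic acid signalling and PR genes gave 0 calls among 7 in Type II in limma, with 1 at an unadjusted p under 0.05, and PR1, at 3135, 1042 and 1036 normalized counts there, overlapped WT. In Type III 4 of the 7 were lower, where 4146 of the 17560 tested loci were lower. The 4 were PR1 (−6.19, limma adjusted p = 0.000115), PR5 (−3.97, adjusted p = 0.00156), PR2 (−2.58, adjusted p = 0.0233) and ICS1, the isochorismate synthase gene (−1.23, adjusted p = 0.0303). Without WT replicate 1 PR2 (limma adjusted p = 0.116) and ICS1 (0.128) did not pass. The part of salicylic acid signalling in the defensin values was not tested.

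Among the remaining regulators, 7 genes gave 0 calls in Type II in limma, with 1 at an unadjusted p under 0.05. They were GRX480, ERF4, WRKY70, WRKY33 and the class II TGA factor genes TGA2, TGA5 and TGA6. Class II TGA factors are required for PDF1.2A expression in some conditions. TGA6 was higher in Type III by 0.91 (limma adjusted p = 0.000123), beside a chromosome 3 median of 0.48, and in Type IV by 0.77 (adjusted p = 0.00108), TGA5 was higher in Type IV by 0.50 (adjusted p = 0.0320), and WRKY33 was lower in Type III (−0.93, adjusted p = 0.0222). The TGA5 call held in 22 of 28 alternatives, with a highest limma adjusted p of 0.153. The WRKY33 call was lost without WT replicate 1, at −0.56 (limma adjusted p = 0.112), or Type III replicate 1 (0.0957). In Type III EIN3, a main ethylene transcription factor gene on chromosome 3, was higher by 1.05 (limma adjusted p = 4.83e-07), MYC4 was at −1.55 (adjusted p = 1.01e-07), COI1 at −0.32 (adjusted p = 0.00421), ACO1, an ethylene-forming oxidase gene, at −1.94 (adjusted p = 0.000206), and ETO1, a repressor of ethylene synthesis, was higher by 0.49 (adjusted p = 0.000378), close to its chromosome 3 median. Lower in Type IV were MYC4 (−1.24, limma adjusted p = 5.64e-06), ACO1 (−2.26, adjusted p = 0.000182) and EIL1 (−0.26, adjusted p = 0.0350), and EIN3 was higher by 0.38 (adjusted p = 0.00525). MYC4 lies on chromosome 4, whose median in Type IV was −0.41, and its call held in all 28 alternatives. The EIL1 call held in 22 of 28, and with each library centred per chromosome EIL1 was at −0.15 (limma adjusted p = 0.208). VSP1, a second vegetative storage protein gene, was higher by 3.11 in both Type III (limma adjusted p = 0.0100) and Type IV (adjusted p = 0.0151). Each call was lost without WT replicate 3, with limma adjusted p of 0.0553 and 0.0753, the Type III call without Type III replicate 2 (0.0575) and the Type IV call without Type IV replicate 1 (0.0757). VSP1 lay between 745 and 1393 normalized counts in Type I and between 470 and 746 in Type II, above the WT libraries at 25.3 to 255. Against WT it stood at 3.16 on the log2 scale in Type I (limma adjusted p = 0.159) and 2.45 in Type II (adjusted p = 0.0782), and Type II passed without WT replicate 1 and Type IV replicate 3 (3.02, adjusted p = 0.0348).

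In Type I 0 of the 55 list genes passed in limma, which called 0.0683% of all tested loci. At an unadjusted p under 0.05, 14 were higher and 0 lower, where 2542 of the 17560 tested loci reached it in either direction. Without WT replicate 1 and Type IV replicate 3, 2 list genes passed in limma, VSP2 and ERF105. In Type III 10 were higher and 12 lower, where limma called 47.6% of loci. In Type IV 12 were higher and 5 lower, where it called 33%. The 6 tested members gave no call in either. PDF1.2C and PDF1.3 had at most 3 reads in WT and in each of these types, so a fall of either could not have been called.

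Markers of other organs were read beside the defensins. The 7 root markers summed to 758 to 1203 normalized counts in Type II, 256 to 476 in WT, 369 to 493 in Type I, 867 to 1427 in Type III and 231 to 426 in Type IV. Nearly all of this was PYK10, on chromosome 3. It was higher than WT in Type II (1.34, limma adjusted p = 0.00459) and in Type III (1.56, adjusted p = 0.000297), beside chromosome medians of −0.08 and 0.48. The other 6 root markers summed to 7.02 to 18.6 in Type II, above every library of WT (0 to 6.02), Type III (4.08 to 5.62) and Type IV (1.59 to 3.91), and to 4.82 to 13.1 in Type I. These sums rest on few reads, and CASP1, with 20 reads in Type II, lies on chromosome 2, which was shifted there. The 4 flower markers summed to 12.0 to 13.4 in Type II, 11.8 to 19.9 in WT, 37.2 to 85.6 in Type I, 50.6 to 112 in Type III and 14.3 to 30.9 in Type IV. AG (2.08, limma adjusted p = 0.00375) and SEP3 (2.23, adjusted p = 0.00400), both floral organ identity genes, were higher in Type III. All 5 seed markers were at 0 in Type II. The part of root or flower tissue in the values of any type was not tested.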

How the data were processed

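The table analysed holds normalized read counts per locus for 15 leaf libraries, which the authors deposited as a signal, each count divided by a size factor of its library. TAIR10 is the genome named in the submitters' processing notes, and the tools named there are STAR 2.4.0j and StringTie 1.0.3, then HTSeq 0.6.0, and DESeq2 1.12.4, with no roles given. All values were whole multiples of 1 step per library (100% within 1e-06), so whole reads were recovered. Loci without an AGI code (260, holding 0.136% of reads) were left out.

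The main test was limma 3.58.1 (R 4.3.3) on log2 of the deposited value plus a pseudocount of 1, trend option on, all 5 groups fitted together. A locus entered if its mean reached 10, which left 17560. An adjusted p (Benjamini-Hochberg over these loci) under 0.05 was a call. The fit was tested on simulated data. Alternatives were edgeR 4.0.16, DESeq2 1.42.0, limma-voom, other scalings, filters and pseudocounts, and fits without each library. With 0 reads in WT, a fold is a bound that sets 3 reads for the whole group. Intervals of read ratios and floors cover counting error only, while intervals of log2 differences come from limma's fit and reflect the spread between libraries.

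The 9 members, the lists and the rule for named genes (the members, and of each list up to 4 genes with the smallest adjusted p that passed in a type against WT) were chosen with earlier results of these data known. Sequences were read from RefSeq's TAIR10.1.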

Additional observations from a re-analysis of the deposited data

How the results depend on the processing

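No paired analysis was possible because the titles carry only running numbers, and replicate numbers were given in accession order. Of 3020 log2 fold changes recomputed for members and named genes, 2890 kept their side of the threshold, 57 of them uncalled values that changed sign, 96 lost the call and 34 gained it; no called value changed sign. For PDF1.2A, PDF1.2C, PDF1.3 and HEL in Type II against WT, every alternative run kept the call, with a highest adjusted p of 0.0251 (HEL, only the compared groups fitted).

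The count of members past the threshold in Type II against WT was 2 with a minimum mean of 50, which leaves fewer members to test, and 4 to 6 with 1 library left out. In Type III it was 2 with DESeq2, 0 to 1 with 1 library left out, and 1 with WT replicate 1 and Type IV replicate 3 both left out, a setting chosen after seeing the data. In Type IV it was 0 to 1 with 1 library left out. For the mean of the 4 types it was 2 with a minimum mean of 1 or no filter, and 0 with a minimum of 50, edgeR, DESeq2 or limma-voom.

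Loci past the threshold in Type I numbered 12, against 21 with a minimum of 1, 23 with no filter, 7 with library totals or limma-voom, 201 with DESeq2, 128 with both libraries left out and 5 to 89 with 1 left out. In Type II they numbered 2559, against 483 with chromosome centring, 1420 with only the compared groups and 1568 to 3097 with 1 library left out. For the mean of the 4 types, 4066 became 2247 to 4558 with 1 left out. Where no construction shows it, the cause was not tested. Between types, the count of loci for Type II against Type I was 350 with chromosome centring, Type IV against Type II went from 7352 to 4139, and Type IV against Type III from 6081 to 2991. Depth limits ERF1, PDF1.1 and the defensins outside Type II, which rest on a few reads.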
